A study of Rattus norvegicus with 399 samples.

Results

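The apoptosis and death receptor genes of the rat S1500+ panel were followed as a group of 25 probes for 25 genes, out of 2654 probes for 2603 gene symbols. A probe was included when its symbol began with Bcl2, Casp, Birc, Tnfrsf or Traf, with Tnfrsf12a left out, or when it was one of Bad, Bak1, Bax, Bid, Cycs, Fas and Mcl1; Apaf1 and Fadd were also asked for but no probe of them was analysed here. The samples came from female Sprague-Dawley rats aged 9 weeks, killed on study day 5 of exposure to a dichlorobenzene. Dichlorobenzenes carry chlorine at 2 positions of the benzene ring, which are neighbours in 1,2-dichlorobenzene (1,2-DCB) and lie opposite each other in 1,4-dichlorobenzene (1,4-DCB). Exposed groups received 1, 10, 30, 100, 250 or 500 ppm of 1,2-DCB, or 1, 10, 50, 150, 400 or 800 ppm of 1,4-DCB, and each compound had its own control group at 0 ppm. The labels used here do not give the route of exposure. Liver, kidney, heart, lung and ovary of the same rats were measured by TempO-Seq, in which a pair of short detector oligos is ligated on the RNA of each target gene and the ligated products are counted.

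Exposed groups held 5 rats in 54 of 60 cases, 4 in 5 cases and 3 in 1 case (lung, 1,4-DCB 400 ppm); control groups held 10 rats except for 9 in kidney (1,2-DCB) and 8 in lung (1,4-DCB). The 390 libraries without a quality remark held between 1202354 and 69774071 counts, with a median of 22555404, and the 25 probes together took at least 2298 counts in every library, with a median of 29629. Liver libraries carried 434270 to 674874 CPM (counts scaled to a common library size) of the 7 hepatocyte marker genes, heart libraries 256902 to 456279 CPM of 4 cardiomyocyte markers, and ovary libraries 7853 to 21712 CPM of 7 follicle and luteal markers in the control and highest-concentration groups. The lung epithelium markers chosen had no probe and the kidney tubule list had 1, Aqp2, so those 2 labels were not checked in this way. Some hepatocyte markers were uneven in heart. In 1,4-DCB control hearts Alb averaged 225.4 ± 334.3 CPM (SD), against 7.01 ± 3.55 CPM at 800 ppm. Apoa1 averaged 82.7 ± 93.3 against 11.1 ± 5.83 CPM, and Serpina1 30.6 ± 60.8 against 0.459 ± 1.03 CPM. Ttr was near level, 708.3 ± 225.2 against 755.2 ± 61.5 CPM, as was Tf. The part of this signal in the heart results was not tested. Levels are given in CPM after scaling between the libraries of a tissue and compound, and a gene is said to have risen or fallen when edgeR's quasi-likelihood test gave an adjusted p below 0.05 over all probes tested. Exposed rats are called 1 to 5 within their group and control rats 1 to 10, by their label numbers.

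Apoptosis is run by 2 connected routes. In the mitochondrial route, BH3-only proteins such as BID and BIM relieve the restraint that BCL2-type survival proteins place on BAX and BAK, these open the outer mitochondrial membrane, and released cytochrome c activates caspase-9 on the apoptosome. In the receptor route, FAS or TNF receptors activate caspase-8, and in hepatocytes this signal commonly depends on cleavage of BID to reach the mitochondria. Both routes end in the executioner caspases, while the inhibitor of apoptosis (IAP) proteins BIRC2 and BIRC3 act mainly as ubiquitin ligases in TNF receptor signalling. BIRC5 (survivin) belongs to the same protein family but works chiefly in mitosis.

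All 25 symbols were found in RefSeq, and promoter sequences (250 bases before to 50 bases after an annotated start, GRCr8) were at hand for 19 of them. The promoters of Bak1 and Birc5 are shown because Bak1 had one of the largest liver responses to 1,2-DCB and Birc5 was the gene called with both compounds below the highest concentration. Both hold the letters TTTGAA, written in capitals, which is the core of the cell cycle genes homology region found in promoters of mitotic genes. The Bak1 window lies at chr20:5110925-5111224 on the minus strand and the Birc5 window at chr10:103571896-103572195 on the plus strand, each printed 5′ to 3′.
Bak1: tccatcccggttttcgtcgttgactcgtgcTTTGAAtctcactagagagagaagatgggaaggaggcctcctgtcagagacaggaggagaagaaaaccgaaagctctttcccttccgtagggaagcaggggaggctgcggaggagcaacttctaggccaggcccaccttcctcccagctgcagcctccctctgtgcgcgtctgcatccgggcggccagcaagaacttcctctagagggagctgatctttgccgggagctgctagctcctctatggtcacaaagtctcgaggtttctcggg
Birc5: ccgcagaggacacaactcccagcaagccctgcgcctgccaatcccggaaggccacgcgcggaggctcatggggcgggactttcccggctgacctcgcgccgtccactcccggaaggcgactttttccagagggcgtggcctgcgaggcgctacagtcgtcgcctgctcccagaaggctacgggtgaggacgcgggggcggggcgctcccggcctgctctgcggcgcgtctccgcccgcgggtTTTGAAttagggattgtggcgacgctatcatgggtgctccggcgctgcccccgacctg
In Birc5 the match begins at position -8 from the annotated start, and in Bak1 at position -220. Searched on both strands, TTTGAA occurred in 18.3% of 33469 RefSeq promoter windows and in 6 of the 19 genes (Bak1, Bcl2, Bcl2a1, Bcl2l1, Birc5 and Fas). The share is by window, while a gene was counted if any of its windows matched, and Bcl2l1 had 4 windows. Of the 14 genes that changed in 1,2-DCB liver 11 had a promoter window, and 4 of these held TTTGAA. A second motif, the core of the antioxidant response element (TGACNNNGC, N being any base), was searched too. It occurred in 12.1% of the windows, in 5 of the 19 genes and in 3 of the 11. Birc5 holds it at position -162, left in small letters above. A match or its absence in such a window describes the letters only.

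The first question was how the genes moved in liver at 500 ppm 1,2-DCB. The genes of the pore-forming proteins BAX and BAK and of their activators BID and BIM were higher in exposed liver, and that of caspase-1 was lower. Of the 24 genes tested, 12 rose and 2 fell, 58.3% in all, where 67.8% of all 2019 probes tested were called, 35% as higher and 32.7% as lower. The median log2 change of the 24 genes was 0.44, against 0.03 over all probes. Tnfrsf17, a receptor of plasma cells, was at 0 to 2 counts in these libraries and was not tested.

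Bax, the effector that permeabilises the mitochondrial membrane, was measured at 29.7, 34.3, 35.4, 38.4 and 32.3 CPM in the 5 exposed livers, against a lowest of 14.5, a median of 16.2 and a highest of 19.2 CPM in the 10 controls. The groups did not overlap. The log2 change was 1.06 ± 0.10 (SE; adjusted p = 2.54e-12). Bak1, the partner effector, was measured at 4.99, 5.35, 6.0, 6.84 and 4.59 CPM in exposed livers, against a lowest of 0.599, a median of 2.32 and a highest of 3.28 CPM in controls. Again every exposed liver lay above every control, and the log2 change was 1.42 ± 0.21 (adjusted p = 2.03e-07).

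Among the BH3-only genes, Bid was measured at 6.07, 7.66, 6.17, 7.82 and 7.89 CPM in exposed livers, against 3.07, 4.18 and 4.83 CPM as the lowest, median and highest control. No exposed liver fell within the control range, and the log2 change was 0.82 ± 0.11 (adjusted p = 2.02e-08). Bcl2l11, which encodes BIM, rose by a log2 change of 2.09 ± 0.45 (adjusted p = 8.67e-05) at a low level, 12 to 43 counts in exposed livers and 0 to 10 counts in controls. Bad, which binds survival proteins when dephosphorylated, had a log2 change of 0.55 ± 0.26 and did not pass the test (adjusted p = 0.0616), though limma voom called it (adjusted p = 0.0362).

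The survival genes of the BCL2 type did not move as one group. Mcl1, a short-lived survival protein on which hepatocytes depend, averaged 82.2 ± 18.5 CPM in exposed and 54.6 ± 8.47 CPM in control livers (SD, n = 5 and 10), a log2 change of 0.59 ± 0.12 (adjusted p = 2.77e-05). Bcl2l1, which encodes BCL-XL, averaged 4.93 ± 1.35 CPM in exposed and 3.44 ± 0.686 CPM in control livers, a log2 change of 0.52 ± 0.15 (adjusted p = 0.00196). Bcl2a1, a survival gene of leukocytes, fell by 0.77 on the log2 scale (SE 0.20, adjusted p = 0.00072), with 1.14 to 2.56 CPM in exposed and 2.09 to 4.08 CPM in control livers. Bcl2 and Bcl2l2 had log2 changes of 0.16 ± 0.41 and -0.03 ± 0.10 and did not pass the test. When the libraries were rescaled on probes averaging 20 CPM or more, the log2 change of Mcl1 was 0.98, and the log2 changes of the probes kept were higher by a median of 0.37, so the size for Mcl1 depends on the scaling. The other called genes were under that filter and were not fitted under this scaling. A scale factor acts on all probes of a library, so a shift of similar size would apply to them too. It would enlarge the rises and shrink the falls of Casp1 and Bcl2a1. Whether those falls would still be called was not tested.

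Among the caspases, Casp2, which is tied to DNA damage and mitotic stress signalling, rose by 0.71 ± 0.18 (adjusted p = 0.000767). The initiators Casp8 and Casp9 had log2 changes of 0.11 ± 0.20 and 0.17 ± 0.21, neither of which passed. Cycs, cytochrome c, had a log2 change of 0.36 ± 0.17 (adjusted p = 0.0543). It was called with DESeq2 (adjusted p = 0.0495), limma voom (0.0429), no filter on low counts (0.0378) or the exposed and control groups alone (0.0465).

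Casp1, the inflammasome caspase that processes interleukin-1β, was lower. Its levels were 0.827, 0.872, 0.912, 0.905 and 0.504 CPM in exposed livers, against 1.4, 1.61 and 1.98 CPM as the lowest, median and highest control. All 5 exposed livers lay below all 10 controls, and the log2 change was -1.01 ± 0.18 (adjusted p = 4.31e-06). In the same livers all 4 macrophage markers measured (Aif1, Cd68, Csf1r and Mrc1) fell, their summed level being 18 to 24.3 CPM in exposed and 27.3 to 49.8 CPM in control livers, and none was near 0. Of the T cell markers tested, 2 of 3 fell, with sums of 2.05 to 3.23 CPM in exposed and 3.50 to 5.47 CPM in control livers, Cd3g and Cd8a being under 0.1 CPM. Of 7 hepatocyte markers, 5 fell and 1 rose. Markers of other cell types fell too: 2 of 3 endothelial markers tested (sums of 16 to 21.8 CPM in exposed and 24.7 to 33.6 CPM in control livers), 2 of 3 fibroblast markers (37.4 to 86 CPM in exposed and 87.6 to 161.1 CPM in control livers, Col1a1 being under 0.1 CPM) and 2 of 2 erythroid markers (34.1 to 93.2 CPM in exposed and 70.2 to 194.8 CPM in control livers). So did 1 of 2 neutrophil markers (0.95 to 2.63 CPM in exposed and 1.9 to 6.38 CPM in control livers) and the 1 B cell marker tested (0.133 to 0.361 CPM in exposed and 0.421 to 1.22 CPM in control livers). The part of these markers in the falls of Casp1 and Bcl2a1 was not tested, and in tissue RNA fewer cells of a type and less RNA per cell cannot be told apart.

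Of the death domain receptors, Tnfrsf1a (TNF receptor 1) rose by 0.74 ± 0.17 (adjusted p = 0.000294), averaging 2.59 ± 0.698 CPM in exposed and 1.54 ± 0.433 CPM in control livers. Tnfrsf21 (death receptor 6) rose by 1.65 ± 0.51 (adjusted p = 0.00476) from very few reads, 10 to 28 counts in exposed and 1 to 10 counts in control livers. At so low a level it may have passed the count filter only through these exposed livers. In 1,4-DCB liver it did not pass, and the 1,2-DCB call held without that filter. Fas averaged 0.511 ± 0.164 CPM in exposed and 0.567 ± 0.271 CPM in control livers, and its change of -0.13 ± 0.33 did not pass. Of the IAP genes, Birc3 rose by 0.33 ± 0.12 (adjusted p = 0.0123), while Birc2 at -0.19 ± 0.09 and the adaptor Traf6 at 0.22 ± 0.27 did not pass. All 14 calls at 500 ppm in liver held when any single exposed or control liver was left out.

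**Figure D1:**
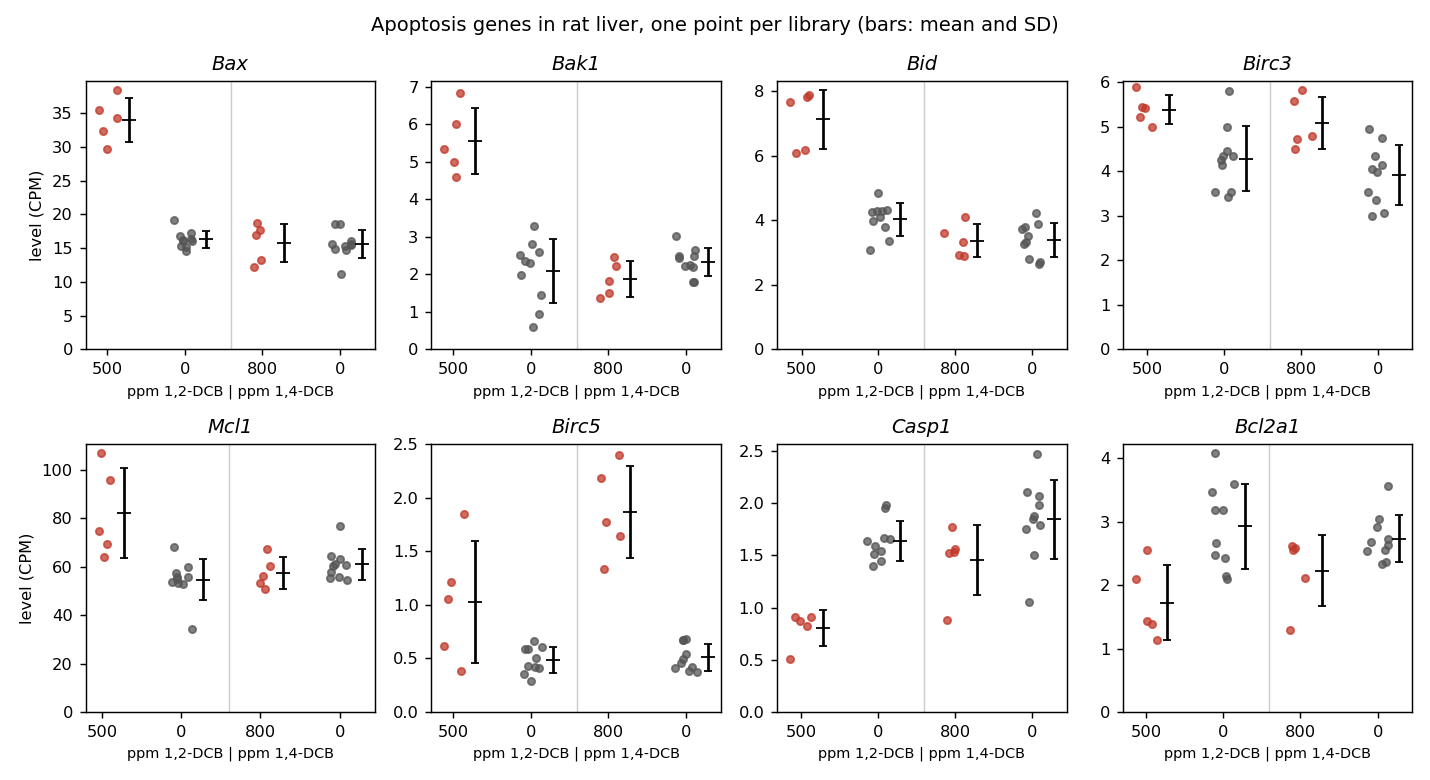
Level in CPM (vertical axis) of 8 apoptosis genes in each liver library at the highest concentration of 1,2-DCB and 1,4-DCB (red) beside the 0 ppm controls of the same compound (grey), with mean and SD as bars. Bax, Bak1 and Bid at 500 ppm 1,2-DCB lie above every control and Casp1 below every control, while at 800 ppm 1,4-DCB Birc5 alone of the 8 lies above every control.

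In liver at 800 ppm 1,4-DCB the rise was led by Birc5, and the pore-forming and BH3-only genes were not called. Of 23 genes tested, 3 rose and none fell, 13% in all, where 34.9% of 2019 probes were called. Birc5 was measured at 1.34, 1.77, 2.4, 2.19 and 1.64 CPM in exposed livers, against 0.37, 0.474 and 0.683 CPM as the lowest, median and highest control, which is 59 or more counts in each exposed and 11 to 34 counts in the control livers. No exposed liver fell within the control range (log2 change 1.87 ± 0.26, adjusted p = 2.9e-07). Birc3 averaged 5.09 ± 0.58 CPM in exposed and 3.91 ± 0.669 CPM in control livers (log2 change 0.38 ± 0.12, adjusted p = 0.0133). The Birc3 call was lost without exposed rat 3 (log2 change 0.32, adjusted p = 0.0594) or exposed rat 2 (0.30, adjusted p = 0.0708). The count of called genes was 1 without exposed rat 3 and 5 without control rat 2.

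For the other main genes of the pathway, 1,4-DCB at 800 ppm gave small estimates. The log2 change was 0.02 for Bax, with a 95% interval of -0.16 to 0.19, and -0.01 for Bid, with an interval of -0.28 to 0.27. Bak1 was estimated at -0.32 ± 0.20, Bcl2l1 at -0.27 ± 0.12, Mcl1 at -0.09 ± 0.09 and Bcl2 at 0.00 ± 0.34. Casp8 was estimated at 0.07 ± 0.17, Casp9 at -0.07 ± 0.14, Tnfrsf1a at 0.11 ± 0.20 and Fas at -0.41 ± 0.25. Casp1 was estimated at -0.36 ± 0.17. None of these pathway genes passed the test. In the same livers 3 of 4 macrophage markers fell, with sums of 21.6 to 33.6 CPM in exposed and 34.1 to 42.9 CPM in control livers. Markers of other cell types fell too: Serpina1 (-0.51 ± 0.08), Cd4 (-0.62 ± 0.14), Kdr (-0.61 ± 0.11) and Col3a1 (-0.58 ± 0.12). Apoa1 (0.51 ± 0.14), Hbb (0.69 ± 0.24) and Alas2 (0.86 ± 0.35) rose. The part of these markers in the Casp1 estimate was not tested.

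**Figure D2:**
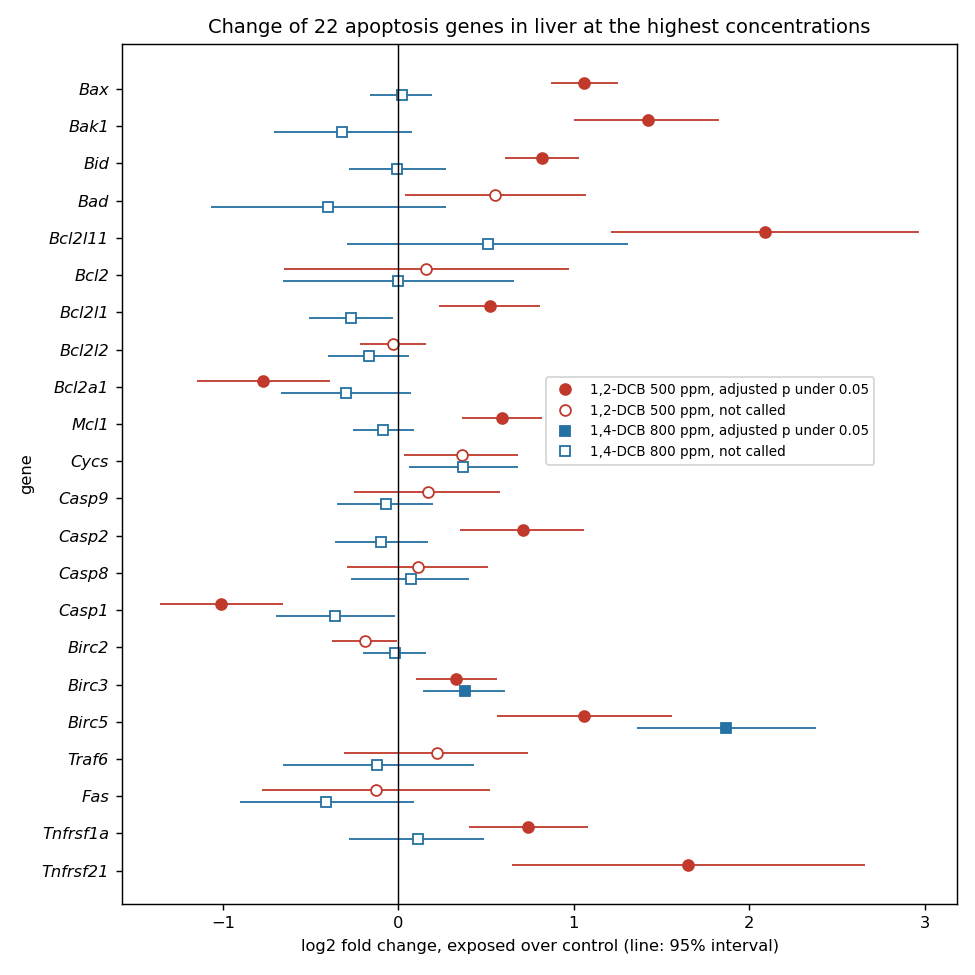
Log2 fold change over own controls in liver (horizontal axis) for 22 of the 24 genes tested at 500 ppm 1,2-DCB (red circles) and 800 ppm 1,4-DCB (blue squares), with 95% intervals, filled where the adjusted p was below 0.05. Of those drawn, 11 rose and 2 fell with 1,2-DCB, 2 rose with 1,4-DCB, and Tnfrsf21 was tested with 1,2-DCB only.

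Below the highest concentrations 6 calls were made, all in liver. Birc5 was the gene called at the lowest concentration with both compounds, from 100 ppm 1,2-DCB and from 400 ppm 1,4-DCB. At 100 ppm 1,2-DCB it was the only one of 24 genes called, 4.17% where 2.13% of all probes were called. Its lowest, median and highest levels were 0.289, 0.465 and 0.668 CPM at 0 ppm, 0.615, 1.04 and 1.48 CPM at 100 ppm, and 1.2, 1.4 and 1.9 CPM at 250 ppm. At 250 ppm all 5 exposed livers were above all controls and at 100 ppm 4 of 5 were. The log2 changes were 1.07 ± 0.26 (adjusted p = 0.0191) at 100 ppm and 1.63 ± 0.25 (adjusted p = 3.15e-06) at 250 ppm. At 500 ppm the levels were 1.85, 1.21, 1.06, 0.386 and 0.616 CPM, so that 2 of 5 exposed livers lay within the control range, and the log2 change was 1.06 ± 0.25 (adjusted p = 0.000373). Whether 500 ppm differed from 250 ppm was not tested. Without exposed rat 3 the change at 100 ppm was 0.89 and the call was lost (adjusted p = 0.111).

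Bak1 and Bax were called from 250 ppm 1,2-DCB, where 4 of 24 genes were called, 3 higher and 1 lower, 16.7% where 24.8% of all probes were called. Bak1 averaged 3.37 ± 0.649 CPM at 250 ppm and 2.08 ± 0.846 CPM at 0 ppm (log2 change 0.69 ± 0.22, adjusted p = 0.0154). Bax averaged 19.8 ± 2.24 CPM at 250 ppm and 16.3 ± 1.31 CPM at 0 ppm, a log2 change of 0.28 ± 0.10 (adjusted p = 0.0334) with 3 of 5 exposed livers inside the control range. Bcl2l2, which encodes the survival protein BCL-W, fell by 0.31 on the log2 scale at 250 ppm (SE 0.10, adjusted p = 0.0184) and was not called at 500 ppm. The Bax call was lost without exposed rat 2 (log2 change 0.23, adjusted p = 0.135), exposed rat 1 (adjusted p = 0.0721), control rat 4 (adjusted p = 0.0507) or control rat 7 (adjusted p = 0.056). The Bak1 call was lost without exposed rat 2 (0.61, adjusted p = 0.0617), and the Bcl2l2 call without exposed rat 4 (-0.18, adjusted p = 0.16). Without exposed rat 2 the number of genes called at 250 ppm was 2.

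At 400 ppm 1,4-DCB, Birc5 was the only gene of 23 called, 4.35% where 6.44% of all probes were called. Its lowest, median and highest levels were 0.679, 0.894 and 1.44 CPM at 400 ppm, against 0.37, 0.474 and 0.683 CPM at 0 ppm, and 4 of 5 exposed livers lay above all controls. The log2 change was 1.04 ± 0.27 (adjusted p = 0.0116). The call was lost without exposed rat 1 (log2 change 0.87, adjusted p = 0.0748) or rat 2 (0.93, adjusted p = 0.0717), and without control rat 6 there were 2 called genes. In the 47 remaining comparisons at lower concentrations, over the 5 tissues, edgeR called no gene in 1124 tests, where 0.131% of all probe tests were called. There 58 tests, 5.16%, had an unadjusted p below 0.05, DESeq2 also called 0, and limma voom called 1.

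**Figure D3:**
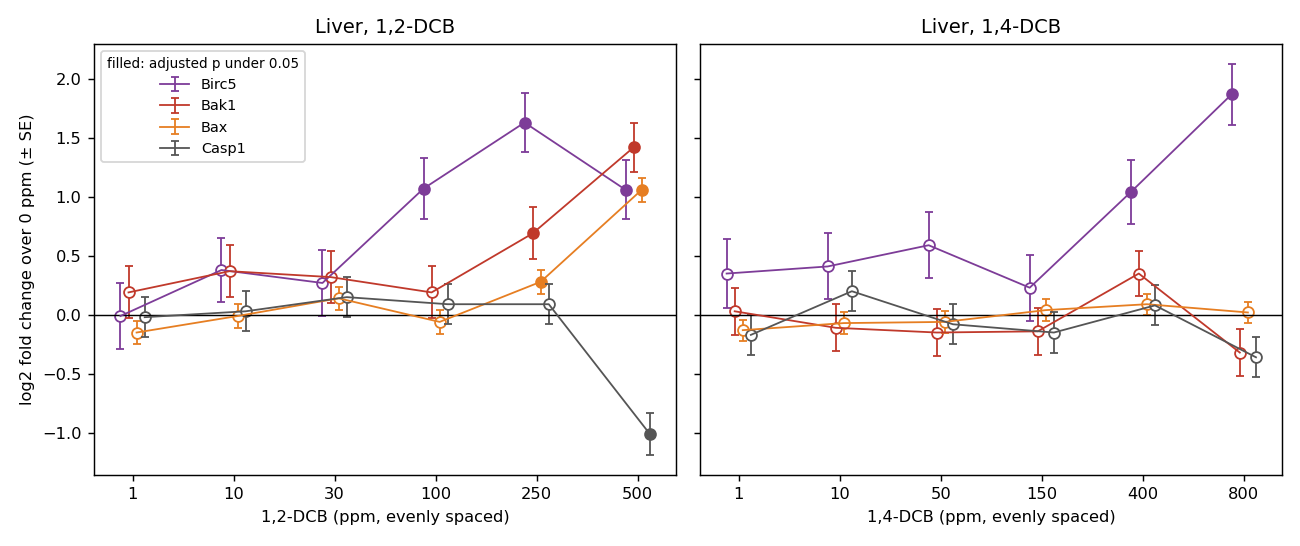
Log2 fold change over 0 ppm (vertical axis, ± SE) of 4 genes in liver by concentration (horizontal axis, evenly spaced steps in ppm), 1,2-DCB at left and 1,4-DCB at right, filled where the adjusted p was below 0.05. Birc5 is called at 100, 250 and 500 ppm 1,2-DCB and at 400 and 800 ppm 1,4-DCB, Bax and Bak1 at 250 and 500 ppm 1,2-DCB, and Casp1 falls at 500 ppm 1,2-DCB.

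Birc5 moved beside the cell cycle genes of the liver. Of 14 cell cycle genes tested at 500 ppm 1,2-DCB 13 rose, where 35% of all probes were called as higher, with a median log2 change of 1.76. At 800 ppm 1,4-DCB all 13 tested rose, where 34.9% of all probes were called in either direction, with a median of 2.14. Mki67, the proliferation antigen, averaged 1.71 ± 1.18 CPM at 500 ppm 1,2-DCB and 0.517 ± 0.129 CPM in its controls, and 2.62 ± 0.958 CPM at 800 ppm 1,4-DCB and 0.665 ± 0.314 CPM in its controls. The list was summed at 27.6 to 52.7 CPM at 500 ppm 1,2-DCB and 13.4 to 20.2 CPM in its controls, and at 35 to 63.4 CPM at 800 ppm 1,4-DCB and 12.9 to 20.2 CPM in its controls. The part of this list in the Birc5 result was not tested.

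Other genes around the pathway were read from lists. Of 7 further mitochondrial route genes tested in liver at 500 ppm 1,2-DCB, 6 rose and 1 fell, where 67.8% of all probes were called (35% higher and 32.7% lower); the same share stands behind each list count at that concentration, and 34.9% behind those at 800 ppm 1,4-DCB. The channel gene Vdac2 (log2 change 0.83 ± 0.11), the co-chaperone Bag3 (1.22 ± 0.20), the mitophagy receptors Bnip3 (0.69 ± 0.12) and Bnip3l (0.50 ± 0.08), Vdac1 (0.29 ± 0.12) and the caspase inhibitor Xiap (0.65 ± 0.26) rose. Bmf, a BH3-only gene, fell to 0.373 ± 0.106 CPM in exposed livers, against 2.24 ± 0.537 CPM in controls (log2 change -2.60 ± 0.20, adjusted p = 1.31e-14). With 800 ppm 1,4-DCB 1 of the 7 rose, Vdac1 (0.36 ± 0.10), and 1 fell, Bmf, with 1.14 ± 0.405 CPM in exposed and 2.41 ± 0.352 CPM in control livers (log2 change -1.08 ± 0.19, adjusted p = 1.43e-05). The genes of BIM and BMF, both BH3-only proteins, had changes of opposite sign at 500 ppm 1,2-DCB.

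Of 6 tested ligands and modulators of the receptor complex, 3 rose and 1 fell at 500 ppm 1,2-DCB, a share near the 67.8% of all probes. Cflar, which encodes the caspase-8 inhibitor cFLIP, fell to 0.858 ± 0.101 CPM in exposed livers, against 1.84 ± 0.448 CPM in controls (log2 change -1.10 ± 0.19, adjusted p = 3.59e-06). Ripk3, the necroptosis kinase, rose by 0.99 ± 0.29, Daxx by 0.56 ± 0.12 and Faim by 0.51 ± 0.10. No gene of this list was called in liver at 800 ppm 1,4-DCB, 0 of 6 tested.

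Further stress response genes of a list were also read at 500 ppm 1,2-DCB, where 67.8% of all probes were called. They are named singly, and no list count is given. Mdm2, which encodes a ubiquitin ligase, averaged 41.6 ± 10.7 CPM in exposed and 10.9 ± 1.41 CPM in control livers (log2 change 1.93 ± 0.11, adjusted p = 4.65e-18), and Ccng1 rose by 2.23 ± 0.39. Aen rose by 1.89 ± 0.22 and Gadd45a by 1.20 ± 0.20. Ei24 fell by 0.89 and Sesn1 by 1.33 on the log2 scale, and Cdkn1a and Phlda3 were under 0.1 CPM on average. Sesn2 was not called there (0.34 ± 0.27). At 800 ppm 1,4-DCB Mdm2 rose by 0.54 ± 0.08 and Gadd45a by 0.47 ± 0.18, while Ei24 fell by 0.19 and Sesn2 by 0.70 on the log2 scale. Of 13 NF-kB pathway genes, 3 rose (Nfkbib, Icam1 and Rela) and 2 fell (Nfkbia and Vcam1) at 500 ppm 1,2-DCB, and 1 fell (Rela) at 800 ppm 1,4-DCB, shares below the 67.8% and 34.9% of all probes. Of the 4 execution phase genes 2 rose at 500 ppm 1,2-DCB, Sptan1 (1.47 ± 0.11) and Parp1 (0.25 ± 0.10), a share below that of all probes, and at 800 ppm 1,4-DCB Parp1 rose (0.37 ± 0.10).

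Outside liver between 0 and 3 of the genes were called at the highest concentration in each tissue and compound. In kidney at 500 ppm 1,2-DCB 3 of 24 genes fell and none rose, 12.5% where 16.4% of all probes were called. Bcl2l1 was measured at 118.1, 111.4, 118.3, 128.8 and 105.1 CPM in exposed kidneys, against 128.7, 150.5 and 171.9 CPM as the lowest, median and highest control. Bcl2a1 was measured at 3.48, 3.71, 3.74, 2.92 and 3.26 CPM in exposed kidneys, against 4.48, 6.65 and 9.6 CPM, and Casp1 at 6.63, 7.06, 7.44, 7.76 and 9.9 CPM, against 8.43, 10.4 and 13.7 CPM. Only Bcl2a1 had no overlap between exposed kidneys and controls. The log2 changes were -0.37 ± 0.08 for Bcl2l1 (adjusted p = 0.00143), -0.93 ± 0.23 for Bcl2a1 (adjusted p = 0.00457) and -0.47 ± 0.13 for Casp1 (adjusted p = 0.00737). In the same kidneys 2 of 4 macrophage markers fell, with sums of 28.3 to 42.1 CPM in exposed and 34 to 58.2 CPM in control kidneys and none under 0.1 CPM, and 1 of 5 T cell markers fell, with sums of 7.63 to 9.85 CPM in exposed and 13.4 to 18.8 CPM in control kidneys. Markers of other cell types fell too: endothelial Vwf (log2 change -1.30 ± 0.20) and the fibroblast genes Col1a2 (-0.62 ± 0.15) and Col3a1 (-1.46 ± 0.21). Kdr, Pecam1, Dcn, Lum and Col1a1 were not called. The part of these markers in the falls of Bcl2a1 and Casp1 was not tested. With the libraries that carry a quality remark included, Casp1 was not called (log2 change -0.43, adjusted p = 0.0549). A filter at a mean of 20 CPM gave calls on Bax (log2 change -0.23, adjusted p = 0.00519) and Cycs (-0.28, adjusted p = 0.0465). Neither was called in the reported fit.

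In kidney at 800 ppm 1,4-DCB, Bax was the only gene of 24 called, 4.17% where 5.03% of all probes were called. It was measured at 150.1, 141.4, 120.2, 140.7 and 137.6 CPM in exposed kidneys, against 132.2, 158.5 and 204.2 CPM as the lowest, median and highest control. The groups overlapped, and the log2 change of -0.24 ± 0.07 (adjusted p = 0.0422) was lost without exposed rats 2, 3, 4 or 5 or control rats 6, 7 or 8, with adjusted p between 0.0649 and 0.179. With DESeq2 size factors the adjusted p was 0.0544, and with only the exposed and control groups fitted it was 0.148.

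In heart at 800 ppm 1,4-DCB, Cycs rose to 69.5, 71.6, 69.3, 66.2 and 78.8 CPM, against 50.8, 56.9 and 74.8 CPM as the lowest, median and highest control. It was the only gene of 24 called in the reported fit, 4.17% where 6.86% of all probes were called. Its log2 change was 0.27 ± 0.09 (adjusted p = 0.0427). The call was lost when any of 13 of the 15 libraries was left out, with an adjusted p of up to 0.172. With a filter at a mean of 20 CPM Cycs was lost too (adjusted p = 0.0581), and Mcl1 was called (log2 change -0.24, adjusted p = 0.019). A fall of Mcl1 was also called with DESeq2 (adjusted p = 0.0335), DESeq2 size factors (0.0429) or the exposed and control groups alone (0.0397). So it was with counts divided by the attenuation step described below (0.0386). In heart at 500 ppm 1,2-DCB edgeR called 0 of 24 genes, where 12% of all probes were called, with 1 gene at an unadjusted p below 0.05. DESeq2 called 1, Birc5 (log2 change -1.35, adjusted p = 0.0338), which edgeR placed at -1.34 ± 0.47 (adjusted p = 0.0545), with 0.805, 0.551, 0.436, 0.416 and 0.701 CPM in exposed hearts, against 0.595, 1.19 and 3.26 CPM as the lowest, median and highest control. Of 15 cell cycle genes tested there, 6 fell and none rose. In heart at 800 ppm 1,4-DCB Racgap1, Ccna2, Ccnb2 and Mki67 of that list fell, and the other genes tested were not called. The part of this list in the Birc5 estimates in heart was not tested.

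In lung at 800 ppm 1,4-DCB, Mcl1 was the only gene of 24 called by edgeR, 4.17% where 5.91% of all probes were called. It was measured at 1777, 1518, 1488, 1239 and 1414 CPM in exposed lungs, against 1477, 1970 and 2362 CPM as the lowest, median and highest of 8 controls. The groups overlapped and the log2 change was -0.40 ± 0.12 (adjusted p = 0.0347); the call was lost when any of 8 of the 13 libraries was left out. In the same lungs 2 of 3 neutrophil markers rose, with sums of 580.4 to 1327 CPM in exposed and 377.1 to 515.3 CPM in control lungs. Erythroid Alas2 (log2 change 0.82 ± 0.19) and the keratin gene Krt7 (0.48 ± 0.09) rose, and endothelial Kdr fell (-0.48 ± 0.15). Hbb, Krt19, Pecam1 and Vwf were not called. Of the cell cycle list Cdc20, Racgap1, Ccna2, Ccnb2 and Mki67 fell, and the other genes tested were not called. The part of these genes in the Mcl1 result, and in the Birc5 estimate given below, was not tested. In lung at 500 ppm 1,2-DCB edgeR and DESeq2 called 0 of 24 genes, where 8.85% of all probes were called by edgeR, with 1 gene at an unadjusted p below 0.05. Of the cell cycle list Cdc20, Top2a, Ccnb2, Mki67 and Mcm5 fell there, and the other genes tested were not called. Their part in the Birc5 estimate of these lungs was not tested.

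In ovary at 800 ppm 1,4-DCB 1 gene rose and 2 fell of 24, 12.5% where 8.47% of all probes were called. Birc2, the IAP ubiquitin ligase, was measured at 147.4, 179.1, 166.3, 156.3 and 161.6 CPM in exposed ovaries, against 107.4, 128.4 and 136.1 CPM as the lowest, median and highest control. Bax was measured at 178.6, 152.5, 167.4, 188.6 and 199.8 CPM in exposed ovaries, against a median of 230.6 and a highest of 255.1 CPM in controls. Neither gene overlapped between the groups, with log2 changes of 0.36 ± 0.08 for Birc2 (adjusted p = 0.00417) and -0.37 ± 0.09 for Bax (adjusted p = 0.00642), and both calls held when any single library was left out. Bcl2l2 was measured at 199.3, 175.5, 162.6, 158 and 171.5 CPM in exposed ovaries, against 186.5, 233.2 and 284 CPM as the lowest, median and highest control. Its log2 change was -0.46 ± 0.14 (adjusted p = 0.0344), and the call was lost when any of 8 of the 15 libraries was left out. In these ovaries 2 of 7 follicle and luteal markers rose, with sums of 14433 to 21712 CPM in exposed and 8597 to 15757 CPM in control ovaries, and their part in the 3 calls was not tested. In ovary at 500 ppm 1,2-DCB, Bcl2a1 was the only gene of 24 called, 4.17% where 2.91% of all probes were called. It was measured at 24.2, 16.7, 21.5, 21.6 and 17.5 CPM in exposed ovaries, against 20.2, 31.9 and 44.4 CPM as the lowest, median and highest control (log2 change -0.68 ± 0.20, adjusted p = 0.0496). That call was lost when any of 13 of the 15 libraries was left out, with an adjusted p of up to 0.175.

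Among 9 central genes (Bax, Bcl2, Bcl2l1, Mcl1, Casp8, Casp9, Fas, Tnfrsf1a and Birc5) the estimates outside liver that did not pass were ranked within each tissue and compound. In kidney they ran from -0.27 ± 0.13 (Casp9) to 0.30 ± 0.42 (Fas) on the log2 scale with 1,2-DCB and from -0.78 ± 0.48 (Fas) to 0.30 ± 0.21 (Tnfrsf1a) with 1,4-DCB. In heart the lowest was Birc5 with both compounds, -1.34 ± 0.47 with 1,2-DCB and -0.95 ± 0.48 with 1,4-DCB, and the highest were Fas at 0.57 ± 0.32 and Bcl2 at 0.13 ± 0.11. In lung the lowest was again Birc5, -0.47 ± 0.29 with 1,2-DCB and -0.80 ± 0.25 with 1,4-DCB (adjusted p = 0.0575, all 5 exposed lungs below all controls; DESeq2 called it, adjusted p = 0.0324, as did the fit of the exposed and control groups alone, 0.0321), and the highest were Tnfrsf1a at 0.52 ± 0.20 and Casp8 at 0.16 ± 0.10. In ovary they ran from -0.17 ± 0.12 (Casp8) to 0.54 ± 0.32 (Fas) with 1,2-DCB and from -0.37 ± 0.14 (Tnfrsf1a) to 0.56 ± 0.39 (Fas) with 1,4-DCB.

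**Figure D4:**
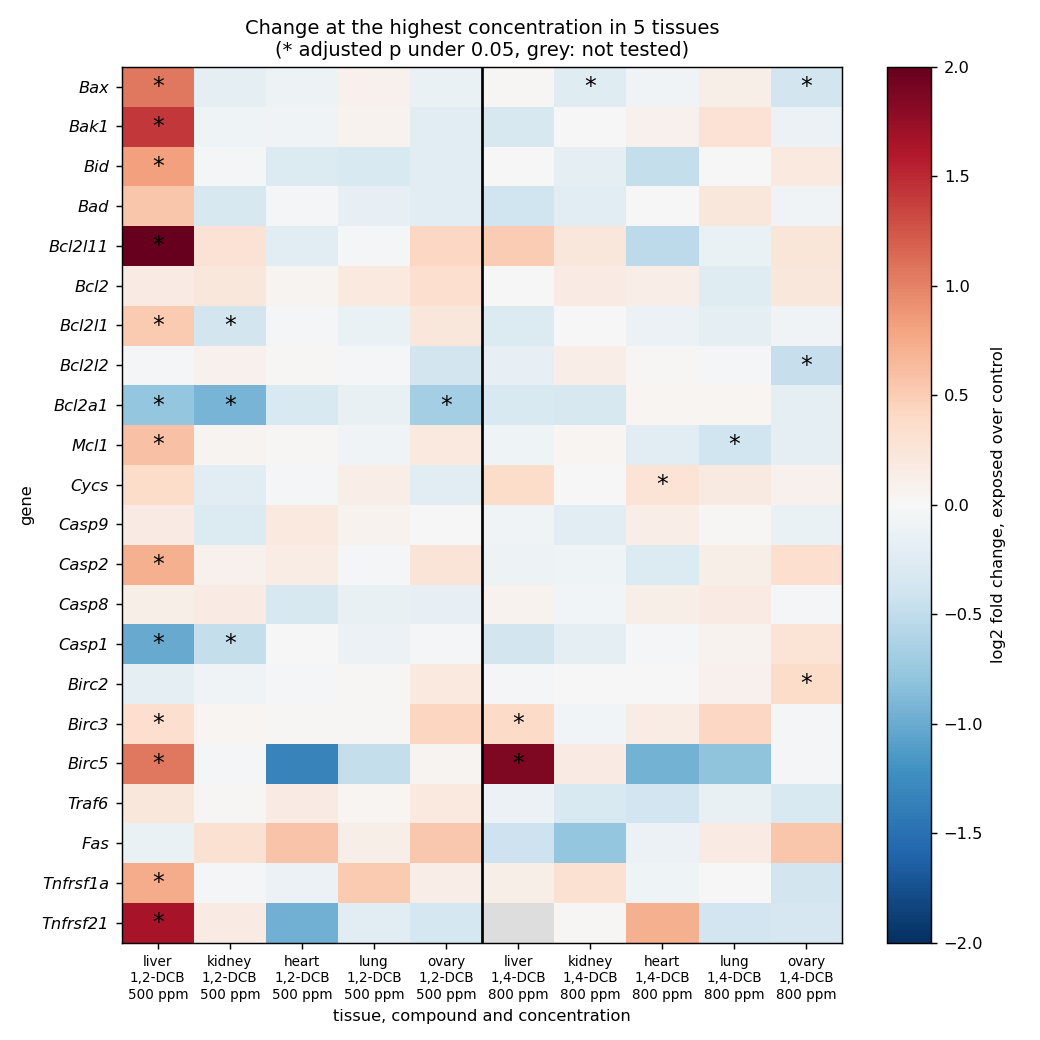
Log2 fold change over own controls (colour) of 22 genes (rows) at the highest concentration in each tissue and compound (columns), a star marking an adjusted p below 0.05 and grey a gene not tested. The 13 calls drawn in 1,2-DCB liver stand beside 2 in 1,4-DCB liver and 0 to 3 in each other column.

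Whether the liver changes differed from those of the other tissues was tested directly, by subtracting the log2 change of another tissue from that of liver. At 500 ppm 1,2-DCB the Bax, Bak1, Bid, Bcl2l11 and Tnfrsf21 changes were higher, and the Casp1 change lower, in liver than in each of the 4 other tissues. Of 24 genes, 10 had a higher and 1 a lower change in liver than in kidney, 45.8% where 41.2% of all probes were called; 8 and 3 than in heart, 45.8% where 39.8% were called; 7 and 3 than in lung, 41.7% where 39.7% were called; and 6 and 2 than in ovary, 33.3% where 42.1% were called. For Bax the difference was 1.10 ± 0.11 against kidney, 0.96 ± 0.11 against heart, 0.79 ± 0.11 against lung and 1.04 ± 0.11 against ovary, with adjusted p of at most 2.2e-08. For Bak1 it lay between 1.17 ± 0.29 (lung) and 1.48 ± 0.28 (ovary), and for Casp1 between -0.68 ± 0.19 (kidney) and -1.20 ± 0.19 (heart). Birc5 differed from kidney, heart and lung, by 2.21 ± 0.46 against heart (adjusted p = 5.06e-05). Its difference from kidney (0.96, adjusted p = 0.0457) was not called with the rat as a block (adjusted p = 0.0731), with DESeq2 (0.0626) or with DESeq2 size factors (0.076). The calls on Bax, Bak1, Bid, Bcl2l11, Tnfrsf21 and Casp1 held in all 4 differences with the rat as a block, with DESeq2 and with DESeq2 size factors. With DESeq2 size factors the differences against kidney were lower by a median of 0.11 over all probes, and the split of called genes was 6 higher and 3 lower in place of 10 and 1. Without exposed rat 5 the number of genes called against kidney was 7.

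At 800 ppm 1,4-DCB the Birc5 change was higher in liver than in each other tissue, by 1.59 ± 0.33 against kidney (adjusted p = 0.000279), 2.69 ± 0.39 against heart (adjusted p = 1.85e-07), 2.52 ± 0.34 against lung (adjusted p = 4.18e-08) and 1.75 ± 0.33 against ovary (adjusted p = 3.82e-05). The Bcl2l2 change was lower in liver than in kidney (-0.42 ± 0.13), the Bak1 change lower than in lung (-0.75 ± 0.25), and the Birc2 and Casp1 changes lower than in ovary (-0.52 ± 0.11 and -0.77 ± 0.24). That made 2 of 24 genes against kidney (8.33%, where 11.5% of all probes were called), 1 against heart (4.17%, 14.8%), 2 against lung (8.33%, 15.1%) and 3 against ovary (12.5%, 21.2%). With the rat as a block the counts were 2 against kidney, 2 against heart, 4 against lung and 5 against ovary, Birc5 being called in all 4. Leaving out single rats gave 1 to 2 against kidney, 1 to 2 against heart, 1 to 3 against lung and 3 against ovary.

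**Figure D5:**
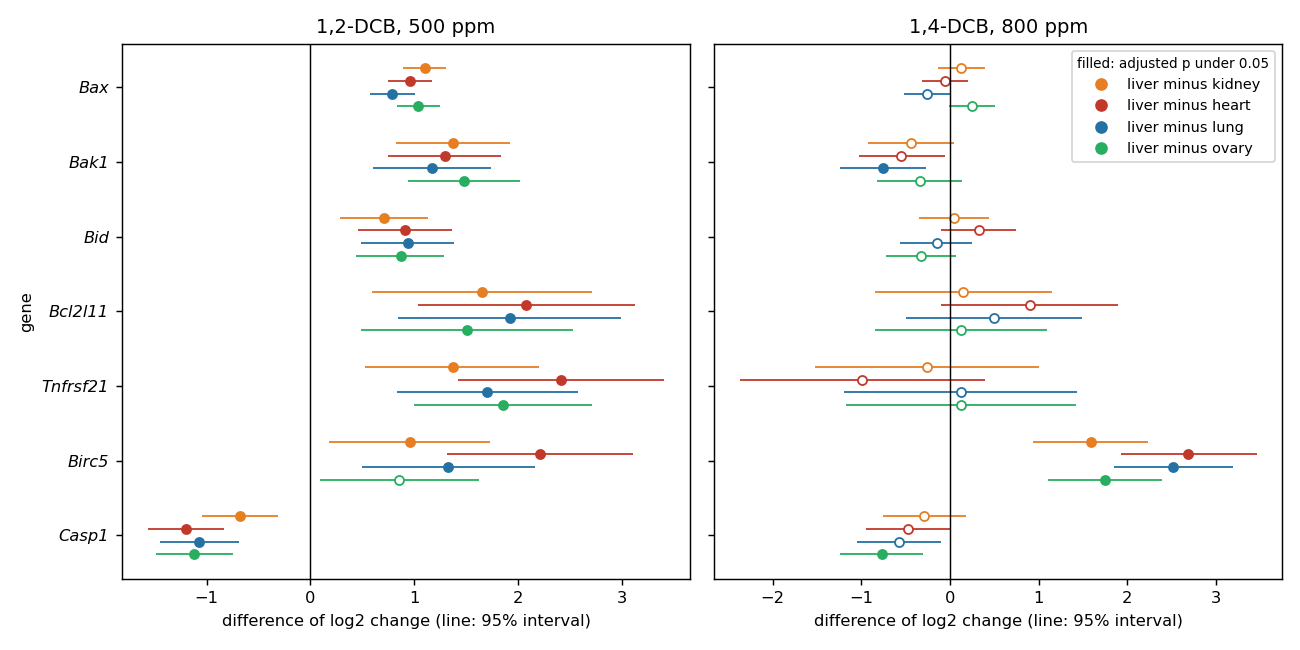
Change in liver minus change in another tissue (horizontal axis, difference of log2 change with 95% interval) for 7 genes, 1,2-DCB 500 ppm at left and 1,4-DCB 800 ppm at right, filled where the adjusted p was below 0.05. With 1,2-DCB all 4 differences are called for Bax, Bak1, Bid, Bcl2l11, Tnfrsf21 and Casp1, and with 1,4-DCB for Birc5.

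The isomers shared 2 exposure levels, 1 and 10 ppm, at which their changes could be set against each other in 10 comparisons over the 5 tissues. With p-values adjusted over all probes in each, edgeR and DESeq2 called no gene in 238 tests of single genes, where 0.00454% of all probe tests were called over the 10 comparisons. Between 0 and 4 genes a comparison had an unadjusted p below 0.05, and the smallest adjusted p was 0.334. At 10 ppm in liver the 1,2-DCB minus 1,4-DCB difference was 0.06 for Bax, with a 95% interval of -0.18 to 0.31, and -0.02 for Birc5, with an interval of -0.68 to 0.63. The median interval reached 0.43 to either side of its estimate, so differences of that size could not be seen for many genes. At the highest levels the concentrations differ and no test was made. The log2 change of Bax was 1.06 ± 0.10 at 500 ppm 1,2-DCB and 0.02 ± 0.09 at 800 ppm 1,4-DCB, and that of Birc5 1.06 ± 0.25 and 1.87 ± 0.26.

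In control rats the genes differed in level between tissues, and the order depended on the scaling. On the plain CPM scale, without TMM scaling, 24 of the 25 genes were lowest in liver, and after scaling the 5 tissues together 7 were. The factors of the joint scaling were 0.14 to 0.187 in liver and 0.996 to 2.58 in the other tissues. The tissue with the highest level was the same both ways for 14 of 25 genes. On both scales 5 genes had a highest tissue whose controls did not overlap with the next. The same counts were not made over all probes, so they cannot be read as particular to these genes. Jointly scaled, Bcl2l1 and Tnfrsf21 were highest in kidney, and Bcl2a1, Casp1 and Mcl1 in lung. On the plain CPM scale Tnfrsf21 averaged 30.2 CPM in kidney, 4.75 in lung, 2.99 in ovary, 0.734 in heart and 0.0904 in liver, and Mcl1 2071 CPM in lung, 758.2 in ovary, 667 in heart, 479.6 in kidney and 55.2 in liver. Casp1 averaged 73.8 CPM in lung, 21.9 in ovary, 10.7 in heart, 10.3 in kidney and 1.66 in liver, neighbouring values of heart and kidney differing by less than their spread. Cycs, whose protein carries electrons in the respiratory chain, was highest in heart on both scales, with overlap with kidney.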

How the data were processed

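The authors deposited a table of read counts per probe that were already adjusted for attenuation. Library totals and CPM given here rest on these adjusted counts. An attenuation step was inferred here as the largest common divisor of a probe's counts. It was above 1 for 115 of 2654 probes, none of them among the 25 genes described. Reads were aligned with Bowtie 1.3.1, per the submitters' processing notes, and no genome build is named in the labels, headers or notes. From these counts, 390 of 399 libraries were used; 9 with a quality remark (5 for depth, 2 for alignment rate, 2 as outliers) were left out. Each tissue and compound was fitted separately with edgeR 4.0.16 (R 4.3.3; TMM scaling, filterByExpr, robust quasi-likelihood, 7 groups), with Benjamini-Hochberg adjustment over all probes tested and a threshold of 0.05; scripts were tested on simulated data. Differences between tissues came from a joint fit, and differences between compounds from a fit of both compounds in a tissue, each as an interaction. CPM are counts divided by TMM-scaled library sizes. Between 23 and 24 of the 25 genes passed the filter in each fit: Tnfrsf17 never did, and Tnfrsf21 did not in 1,4-DCB liver.

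The genes, lists and tests were chosen with earlier results of these data known. Genes were named if called at the highest concentration with a mean of at least 5 CPM, with values for the 6 largest rises and falls. In liver at the highest concentrations 9 central genes are given whether called or not. Outside liver only the lowest and highest of their estimates that did not pass are given for each tissue and compound. Some genes are not reported here but are included in the counts. Values of Bcl2a1, Bcl2l11, Casp1 and Tnfrsf21 in liver, below 5 CPM, were chosen after they were seen. Replicates are separate rats, and the tissues of a rat share its number: same-rat deviations correlated at a median r of 0.082 (1,2-DCB) and 0.073 (1,4-DCB) over 142 pairs each, against -0.013 and -0.0088 between rats, so the rat was a block in an alternative fit. DESeq2 1.42.0, limma 3.58.1 voom, other scalings and filters, the inclusion of the 9 libraries and leaving out each library were the other alternatives.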

Additional observations from a re-analysis of the deposited data

Results flagged for a closer look

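Single libraries stood apart from the rest of their group in 2 cases among 34 groups screened, and chance flags about 1 in 20 groups. Casp2 at 500 ppm 1,2-DCB in liver had a highest value of 8.09 CPM, the next being 5.73 CPM. Mcl1 in the 0 ppm livers of 1,2-DCB had a lowest value of 34.2 CPM, the next being 53 CPM. The Casp2 and Mcl1 calls held when either of these libraries was left out.

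The change in liver differed from that in another tissue, by the test of the difference itself, in each comparison made. At 500 ppm 1,2-DCB 11 genes differed between liver and kidney, 11 between liver and heart, 10 between liver and lung and 8 between liver and ovary, where 41.2%, 39.8%, 39.7% and 42.1% of all probes did in that order. At 800 ppm 1,4-DCB the counts were 2 against kidney, 1 against heart, 2 against lung and 3 against ovary, where 11.5%, 14.8%, 15.1% and 21.2% of all probes differed. For 1,4-DCB the share of the genes lay below that of all probes in all 4, and for 1,2-DCB in the ovary difference.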

How the results depend on the processing

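Of 33 called changes of single genes, 20 held in every alternative in which they were tested, and none reversed. At 500 ppm 1,2-DCB in liver all 14 did, though only Mcl1 among them was kept by the filter at 20 CPM described next. Leaving out a library gave 14 to 16 calls there. A filter at a mean of 20 CPM left 2 of the genes in liver, of which 1 was called at 500 ppm 1,2-DCB; it gave 0 calls in liver at 100 and 250 ppm 1,2-DCB and at 400 and 800 ppm 1,4-DCB, and 0 in ovary at 500 ppm 1,2-DCB. That filter left 12 genes in the tissue differences, with 7, 6, 6 and 5 calls against kidney, heart, lung and ovary with 1,2-DCB, and 0 against kidney and 0 against lung with 1,4-DCB. Among all probes called in ovary at 500 ppm 1,2-DCB, 62.7% were higher under it and 52.2% in the reported fit. DESeq2 gave 1 call in heart at 500 ppm 1,2-DCB and 2 each in heart and lung at 800 ppm 1,4-DCB. DESeq2 size factors gave 0 in kidney and 2 in heart at 800 ppm 1,4-DCB and 0 in ovary at 500 ppm 1,2-DCB. Fitting only the exposed and control groups gave 0 in kidney and 2 in heart at 800 ppm 1,4-DCB and 2 in liver at 250 ppm 1,2-DCB. Without a filter there were 0 in heart at 800 ppm 1,4-DCB and 0 in ovary at 500 ppm 1,2-DCB, and with counts divided by the attenuation step 2 and 0. With the 9 libraries included, lung at 800 ppm 1,4-DCB gave 0 and the 47 remaining comparisons gave 2 (lung, 400 ppm 1,4-DCB). Limma voom gave 2 in liver at 400 ppm 1,4-DCB and 1 in the 47 comparisons. The cause of these moves was not tested.

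With the replicate block (rat), the 1,4-DCB differences gave 2 calls against heart, 4 against lung and 5 against ovary; the added ones were Bcl2l2 (heart, lung), Casp1 (lung), and Casp2 and Fas (ovary). With 1,2-DCB the block gave 10, 11, 11 and 8 calls against kidney, heart, lung and ovary, with Birc5 against kidney lost (adjusted p = 0.0731) and Bcl2l1 against lung gained (adjusted p = 0.0433); it changed no other call.

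Leaving out single libraries gave 1 to 5 calls in liver at 800 ppm 1,4-DCB, 0 to 1 at 100 ppm and 2 to 5 at 250 ppm 1,2-DCB, and 0 to 2 at 400 ppm 1,4-DCB. At 500 ppm 1,2-DCB it gave 3 to 4 in kidney and 0 to 1 in each of heart, lung and ovary. At 800 ppm 1,4-DCB it gave 0 to 1 in kidney, 0 to 2 in heart, 0 to 2 in lung and 2 to 3 in ovary. In heart at 500 ppm 1,2-DCB leaving out control rat 2, 5 or 8 gave 1 call, and in lung leaving out exposed rat 3 gave 1. In lung at 800 ppm 1,4-DCB 2 calls came without control rat 6, and in heart without control rat 6 or 8. The tissue differences ranged over 7 to 12, 8 to 12, 9 to 12 and 7 to 10 calls with 1,2-DCB (kidney, heart, lung, ovary) and 1 to 2, 1 to 2, 1 to 3 and 3 to 3 with 1,4-DCB, and the differences between compounds stayed at 0. Genes such as Bcl2l11, Tnfrsf21 and Birc5 in liver rest on few counts a library, and counting error limits their fold changes.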
